A study of Mus musculus with 9 samples.

Results

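The genes described here are the 2 growth factors pleiotrophin (*Ptn*) and midkine (*Mdk*) and 5 genes of cell surface proteins that bind them, *Ptprz1*, *Ptprs*, *Sdc3*, *Ncl* and *Lrp1*. They were chosen by name and make up 7 of the 17487 genes listed in at least 1 of the 9 single-cell libraries. The libraries came from microdissected mouse neocortex at E18.5, with 1 embryo per library, and had been made to ask which transcripts change when the transcription factor TCF4 is lost. KO embryos carried on both alleles of *Tcf4* an insertion of *lacZ* and neomycin resistance that precedes exon 4, and WT embryos were their littermates, the strain being labelled Tcf4ex4WT/lacZ for both groups. The cassette leaves the start sites that lie after exon 4, so the allele is not a complete loss of *Tcf4* transcripts, and it is present in every cell of the animal. The comparisons used the libraries WT2, WT3, WT4, KO4 and KO5. WT1, WT5, KO1 and KO2 entered no main comparison and are used only where they are named.

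Pleiotrophin and midkine are small, basic, secreted proteins that bind heparan and chondroitin sulphate chains. In the developing cortex they are known as signals from progenitors and glia that act on neurite growth, migration and survival. PTPRZ1 is a receptor tyrosine phosphatase with chondroitin sulphate chains, is carried by radial glia, and loses phosphatase activity when pleiotrophin clusters it. PTPRS is a related phosphatase that binds glycosaminoglycan chains, syndecan 3 (SDC3) carries heparan sulphate, LRP1 takes up many ligands by endocytosis, and nucleolin (NCL) is a nucleolar protein that also reaches the cell surface.

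The levels below are UMIs (counted transcript molecules) of a gene per 10000 UMIs of a cell, averaged over the cells of a library or class. After the limits on cells, the libraries WT2 to WT4, in this order, held 1184, 1617 and 6173 cells and KO4 and KO5 held 4199 and 2303, with median depths of 2478.5, 3636 and 4359 UMIs in WT against 2290 and 2217 in KO. The haemoglobin limit removed 0.421% to 1.34% of cells in these WT libraries, 13.9% in KO4 and 40.4% in KO5. *Tcf4* stood at 12.2, 12.6 and 12.2 UMIs per 10000 in the compared WT libraries (WT2 to WT4, in this order throughout) and at 9.29 and 7.59 in the compared KO libraries (KO4, then KO5). The 3′ tags of *Tcf4* lie outside the inserted cassette, so this level does not by itself check the genotype. The library labelled WT5 was at 7.20 and that labelled WT1 at 4.65, under both KO4 and KO5, while the library labelled KO1 was at 16.7, above every WT library. Any pair of libraries shared at most 39 cell barcodes.

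Cells were put into classes by marker genes, none of which is one of the 7 genes, after each cell had been thinned to 1800 UMIs. The tested classes were radial glia or astrocytes (at least 3 of a list of genes such as *Slc1a3*, *Fabp7* and *Hes5*), cycling cells, *Eomes*-type intermediate progenitors, newborn neurons, deep-layer neurons and interneurons. Cells that passed gates of several lineages were left out as possible doublets, and these were 17.3%, 9.09% and 16.6% of cells in the WT libraries but 28.2% and 33.4% in KO4 and KO5. Of the radial glia or astrocytes, 34.3%, 14.8% and 37.8% sat at the gate minimum in the WT libraries and 61.3% and 55.1% in the KO libraries. The glial marker *Slc1a3* was at 6.66, 9.78 and 6.67 UMIs per 10000 in that class in WT and at 2.05 and 1.33 in KO. The class names therefore rest on sharper marker contrasts in WT than in KO.

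*Ptn* and *Ptprz1* both lie on chromosome 6, on opposite strands. The gene models run from 36714929 to 36810220 (minus strand) for *Ptn* and from 22875502 to 23052916 (plus strand) for *Ptprz1*, in GRCm38. *Mdk* lies on chromosome 2 (91929805 to 91932297, minus strand), *Ptprs* on chromosome 17 (56412426 to 56476483, minus strand), *Sdc3* on chromosome 4 (130792537 to 130826319, plus strand), *Ncl* on chromosome 1 (86344719 to 86359400, minus strand) and *Lrp1* on chromosome 10 (127538161 to 127621148, minus strand). TCF4 belongs to the basic helix-loop-helix factors, which bind the E-box, so the 250 bases upstream of each RefSeq start (GRCm38.p6) were searched for CANNTG, which reads the same on either strand, and for GGGCGG, the GC box, on either strand. Promoters were found for 6 of the 7 genes, the exception being *Mdk*, and *Ptprs* had 2 windows. *Ptn* and *Ptprz1*, which differed most between classes, and *Ptprs*, the only one of the 6 with an E-box, in 1 of its 2 windows, are shown here, with E-boxes and GC boxes in capitals.

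Ptn, chr6:36810180-36810429, minus strand: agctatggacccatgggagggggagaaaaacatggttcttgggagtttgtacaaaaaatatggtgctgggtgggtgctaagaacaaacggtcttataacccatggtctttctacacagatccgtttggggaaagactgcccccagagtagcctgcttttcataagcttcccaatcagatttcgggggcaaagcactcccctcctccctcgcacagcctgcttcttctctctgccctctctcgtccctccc
Ptprz1, chr6:22875252-22875501, plus strand: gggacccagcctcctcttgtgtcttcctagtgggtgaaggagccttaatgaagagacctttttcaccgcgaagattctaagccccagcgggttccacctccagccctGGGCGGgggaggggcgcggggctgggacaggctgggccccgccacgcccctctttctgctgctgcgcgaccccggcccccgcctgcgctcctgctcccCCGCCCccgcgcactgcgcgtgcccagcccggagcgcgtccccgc
Ptprs, chr17:56476481-56476730, minus strand: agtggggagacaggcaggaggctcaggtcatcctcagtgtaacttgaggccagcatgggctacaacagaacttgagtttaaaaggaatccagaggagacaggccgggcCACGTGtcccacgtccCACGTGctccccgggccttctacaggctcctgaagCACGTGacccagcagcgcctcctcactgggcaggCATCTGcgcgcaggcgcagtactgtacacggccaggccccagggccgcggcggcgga

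The *Ptn* window held neither motif and had a GC content of 52.0%, near the median of 52.4% over 32851 RefSeq promoters. The *Ptprz1* window held 2 GC boxes and no E-box at a GC content of 71.6%. The *Ptprs* window held 4 E-boxes, between 142 and 57 bases before the start, and no GC box. Of all windows of this length, 66.2% held an E-box, 32.7% held a GC box and 3.84% held 4 or more E-boxes. These are matches of letters, not sites.

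*Ptn* transcripts were found in every tested class of the WT cortex, with the highest level in glia. In WT2, WT3 and WT4, radial glia or astrocytes held 20.3, 36.5 and 15.3 UMIs per 10000. Interneurons held 5.15, 3.94 and 1.95. Glia were thus the highest and interneurons the lowest class in each of these 3 libraries. The WT means of the other classes lay between them, at 10.1 ± 2.70 in cycling cells, 9.25 ± 2.61 in deep-layer neurons, 8.03 ± 3.33 in newborn neurons and 5.94 ± 1.42 in intermediate progenitors (SD, n = 3). Glia exceeded cycling cells, the next class, by 1.11 ± 0.19 on the log2(level + 1) scale (SE; limma on the WT libraries, adjusted p = 0.000944), a contrast in which 9.52% of all genes were called. Every other pair of neighbours in this order missed the threshold, with limma adjusted p from 0.0657 to 0.937. The planned fit over the 5 compared libraries called no pair of neighbours for any of the 7 genes. In that fit glia exceeded cycling cells by 0.60 ± 0.28 log2 (limma, adjusted p = 0.393). In KO4 and KO5 glia held 7.18 and 7.15 UMIs per 10000 and interneurons 5.71 and 6.85. There cycling cells were the highest class, at 8.84 and 7.52, and the lowest were intermediate progenitors in KO4 (5.37) and deep-layer neurons in KO5 (6.17). Outside the tested classes, WT *Ptn* reached 37.1 in 5 mural cells of WT3 and 52.2 in 2 fibroblasts of WT4, and stood at 3.28, 2.53 and 2.61 in the 29, 10 and 31 Cajal-Retzius cells of WT2, WT3 and WT4.

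*Mdk*, the other ligand, followed another order and was highest in intermediate progenitors, the transit cells between radial glia and projection neurons. There it stood at 7.21, 8.65 and 6.67 UMIs per 10000 in WT2, WT3 and WT4. Cycling cells followed with 4.06, 5.98 and 4.43, then radial glia or astrocytes with 2.57, 5.30 and 3.54. Postmitotic classes were lower, with WT means of 2.96 ± 0.608 in newborn neurons, 1.74 ± 0.480 in interneurons and 1.44 ± 0.624 in deep-layer neurons (SD, n = 3). Intermediate progenitors exceeded cycling cells by 0.55 ± 0.10 log2 (limma on the WT libraries, adjusted p = 0.000136, 13.3% of genes called), and newborn neurons exceeded interneurons by 0.53 ± 0.10 log2 (limma, adjusted p = 0.000693, 4.95% of genes called). Cycling cells and glia, glia and newborn neurons, and interneurons and deep-layer neurons did not differ at the threshold (limma adjusted p = 0.0594, 0.108 and 0.399). In the planned fit over the 5 compared libraries, intermediate progenitors against cycling cells had a limma adjusted p of 0.262. Newborn neurons against interneurons had 0.301 in that fit. In KO4 and KO5 intermediate progenitors held 2.36 and 2.43 and cycling cells 2.91 and 2.04, below every WT value of the same class.

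*Ptprz1*, the receptor phosphatase, was more unequal between classes in WT than either ligand in the ratio of highest to lowest class. Radial glia or astrocytes held 10.6, 21.6 and 14.7 UMIs per 10000 in WT2, WT3 and WT4. Cycling cells held 5.83, 6.63 and 6.72. The WT means of neurons and intermediate progenitors ran from 2.03 ± 0.468 in deep-layer neurons down to 1.37 ± 0.182 in intermediate progenitors (SD, n = 3). The lowest class was newborn neurons in WT2, intermediate progenitors in WT3 and interneurons in WT4. Glia exceeded cycling cells by 1.12 ± 0.11 log2 (limma on the WT libraries, adjusted p = 1.3e-09, the same 9.52% of genes called), and cycling cells exceeded deep-layer neurons by 1.29 ± 0.11 log2 (limma, adjusted p = 2.47e-11, 20.8% of genes called). The last 4 classes in the order did not differ from their neighbours at the threshold (limma adjusted p from 0.621 to 0.958). In the planned fit over the 5 compared libraries, glia against cycling cells had a limma adjusted p of 0.529. Cycling cells against deep-layer neurons had 0.144 in that fit. Oligodendrocyte lineage cells, which are known to carry PTPRZ1, held 12.3, 16.5 and 15.2 in 5, 12 and 54 WT cells, and Cajal-Retzius cells held 0.251, 0 and 0.224. In KO4 and KO5 glia held 3.50 and 2.31 and cycling cells 3.58 and 2.32.

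**Figure D1:**
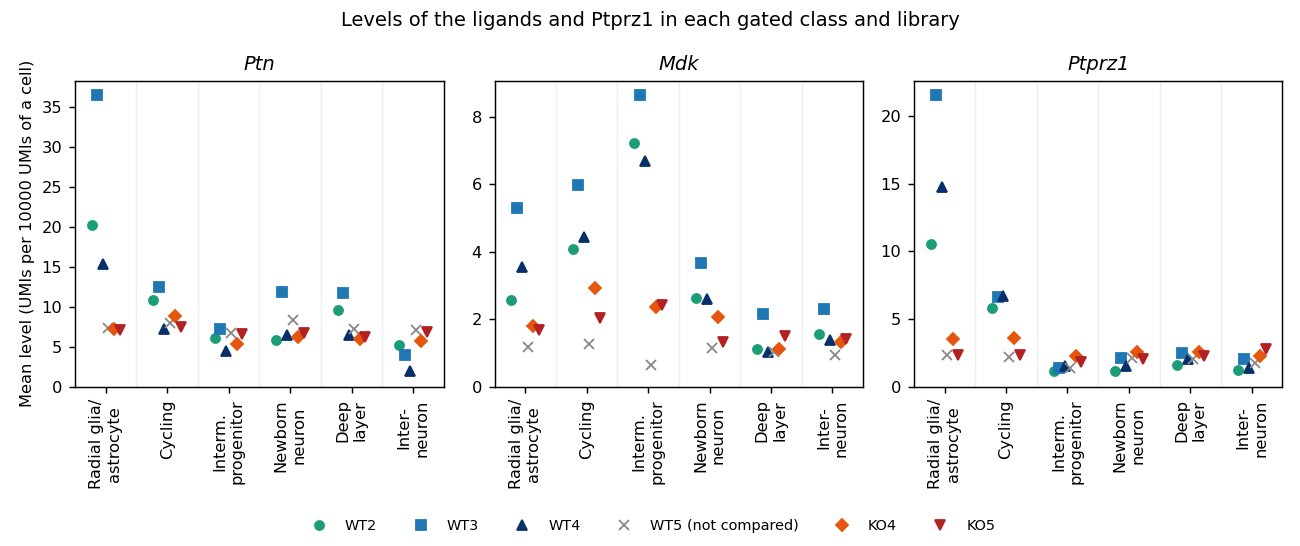
Mean level (UMIs per 10000 UMIs of a cell) of *Ptn*, *Mdk* and *Ptprz1* in the 6 gated classes, 1 point per library, with WT2, WT3 and WT4 in green to blue, KO4 and KO5 in orange to red, and the library labelled WT5, which was not compared, as grey crosses. The WT points rise in radial glia or astrocytes for *Ptn* (15.3 to 36.5) and *Ptprz1* (10.6 to 21.6) and in intermediate progenitors for *Mdk* (6.67 to 8.65), while the KO and WT5 points spread less across classes, by ratios of at most 1.65 for *Ptn* and *Ptprz1* and 2.64 for *Mdk*.

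The 4 other receptor genes had lower ratios of highest to lowest WT class mean than *Ptn*, *Mdk* and *Ptprz1*. *Ptprs* was highest in newborn neurons in each WT library, at 3.15, 2.55 and 2.76 UMIs per 10000 in WT2, WT3 and WT4, and its lowest WT class mean was 1.53 ± 0.266 in radial glia or astrocytes (SD, n = 3). No neighbouring classes in its order differed at the threshold (limma adjusted p from 0.433 to 0.879). *Ncl*, which serves ribosome production, was highest in cycling cells at 7.52, 7.51 and 6.45, and its other WT class means lay between 5.12 ± 0.50 and 5.90 ± 1.37. Cycling cells and interneurons, the next class, missed the threshold at a difference of 0.26 ± 0.09 log2 (limma on the WT libraries, adjusted p = 0.0512). *Lrp1* had its lowest WT class mean in cycling cells, at 0.176, 0.205 and 0.352, against WT means of 0.505 to 0.647 in the other classes. Cycling cells were the lowest class in WT2 and WT4, and intermediate progenitors (0.181) in WT3. Ordered by the mean of log2(level + 1), cycling cells came after intermediate progenitors, and the difference of 0.27 ± 0.09 log2 missed the threshold (limma, adjusted p = 0.0721). Microglia, which are known to use LRP1 for uptake, held 1.63, 5.92 and 1.14 in the 2, 2 and 27 cells of WT2, WT3 and WT4. *Sdc3* was low everywhere, with WT class means of 0.257 ± 0.232 in interneurons to 0.532 ± 0.233 in intermediate progenitors and limma adjusted p from 0.599 to 0.901 between neighbours.

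**Figure D2:**
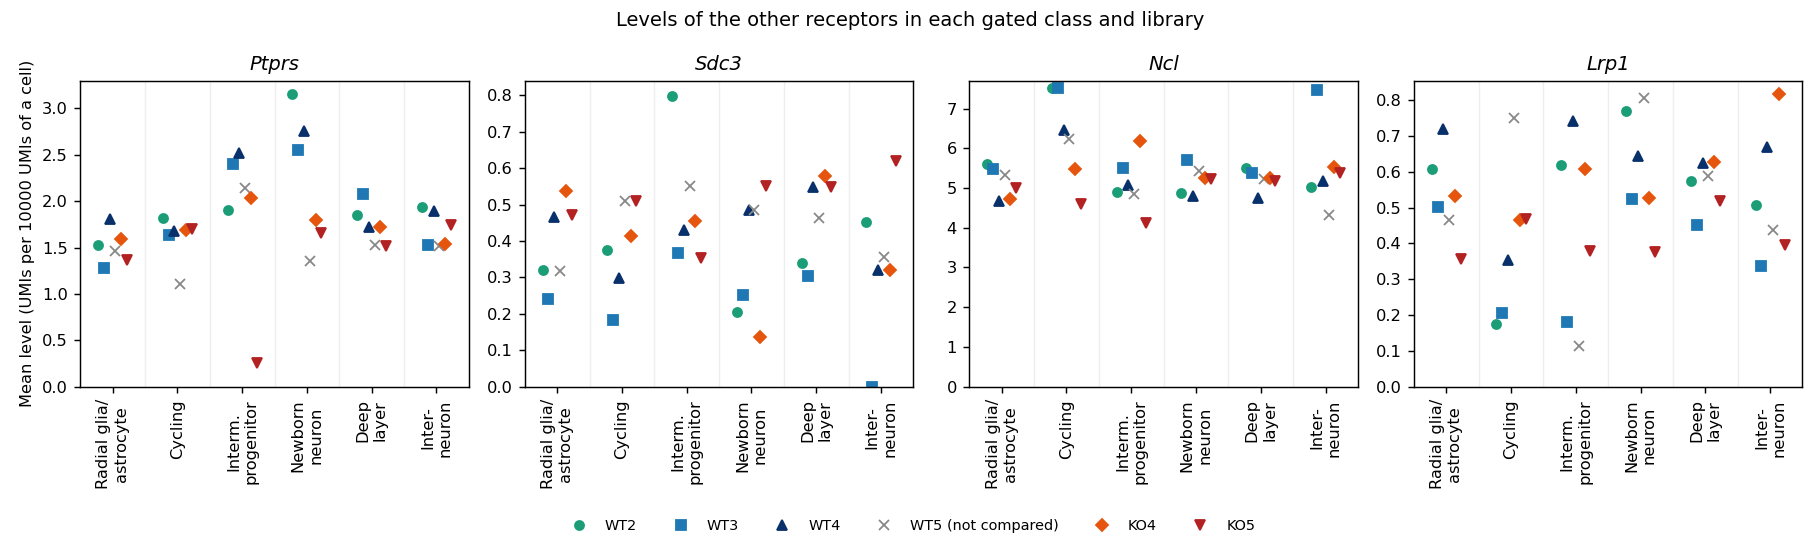
Mean level (UMIs per 10000 UMIs of a cell) of *Ptprs*, *Sdc3*, *Ncl* and *Lrp1* in the 6 gated classes, 1 point per library, with the symbols and colours of the libraries given under the panels. Most points of a gene overlap between classes and genotypes, apart from high *Ncl* in WT cycling cells (6.45 to 7.52), high *Ptprs* in WT newborn neurons (2.55 to 3.15) and low *Lrp1* in WT cycling cells (0.176 to 0.352).

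Each class was then set against the mean of the other 5 classes, first over all 5 libraries with the library as a block and then over the WT libraries alone. Over 5 libraries 8 of 42 gene and class pairs were called. *Ptn* was higher in radial glia or astrocytes by 1.0 ± 0.22 log2 (limma, adjusted p = 0.00571) and *Ptprz1* by 1.46 ± 0.28 log2 (limma, adjusted p = 0.0023), where 5.75% of all genes were called. *Mdk* was higher in intermediate progenitors by 0.86 ± 0.13 log2 (limma, adjusted p = 0.000409), where 1.39% of genes were called. In cycling cells, with 11.0% of genes called, *Mdk* was higher by 0.47 and *Ncl* by 0.21 log2 and *Lrp1* was lower by a log2 difference of -0.21. *Mdk* was lower in deep-layer neurons (-0.73 log2, 1.58% of genes called) and in interneurons (-0.58 log2, 2.35% of genes called), while *Ptn* in interneurons missed the threshold at -0.80 ± 0.22 log2 (limma, adjusted p = 0.0530). In newborn neurons, where 0.675% of genes were called, limma called 0 of the 7 genes, while *Ptprs* had an unadjusted p under 0.05. The count-based tools edgeR and DESeq2 were not run on contrasts between classes. Without WT2 or WT3 only *Mdk* in intermediate progenitors was called of the 42 pairs, at 0.73 and 0.81 log2, and without WT4 this pair (0.77 log2) and *Mdk* in deep-layer neurons (-0.64 log2) were called.

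In the WT libraries alone 17 of the 42 pairs were called, beside a background of 13.5% of genes in radial glia or astrocytes, 17.4% in cycling cells, 4.37% in intermediate progenitors, 6.65% in newborn neurons, 9.74% in deep-layer neurons and 12% in interneurons. *Ptn* was higher in glia (1.59 log2) and lower in interneurons (-1.28 log2) and intermediate progenitors (-0.55 log2). *Mdk* was higher in intermediate progenitors (1.20 log2) and cycling cells (0.53 log2), and lower in deep-layer neurons (-0.99 log2) and interneurons (-0.77 log2). *Ptprz1* was higher in glia (2.32 log2) and cycling cells (0.98 log2) and lower in intermediate progenitors (-1.0 log2), newborn neurons (-0.85 log2), interneurons (-0.88 log2) and deep-layer neurons (-0.58 log2). *Ptprs* was higher in newborn neurons (0.43 log2) and lower in glia (-0.28 log2), and in cycling cells *Ncl* was higher (0.37 log2) and *Lrp1* lower (-0.33 log2).

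The compared WT and KO libraries also differed in how far the levels spread over the classes of a library. The ratio of the highest to the lowest class level of *Ptn* was 3.94, 9.26 and 7.87 in WT and 1.65 and 1.22 in KO. For *Mdk* the ratio was 6.44, 4.01 and 6.42 in WT and 2.64 and 1.83 in KO. For *Ptprz1* it was 9.10, 15.5 and 10.5 in WT and 1.61 and 1.51 in KO. The compared WT and KO libraries did not overlap in these ratios for any of the 3 genes. How many of all genes did not overlap in this ratio is not given here, so the separation is not shown to be particular to these genes. The library labelled WT5, which carries the WT label but had *Tcf4* at 7.20, stood with the KO libraries, at 1.23 for *Ptn*, 1.94 for *Mdk* and 1.64 for *Ptprz1*. The small library labelled KO1, which had *Tcf4* at 16.7, held 29.3 UMIs per 10000 of *Ptn*, within the WT range, and 9.14 of *Ptprz1*, between the groups, in 55 glia. Its ratios, over the 4 classes with enough cells, were 3.0 for *Ptn* and 5.58 for *Ptprz1*, between the groups, and 1.84 for *Mdk*, within the KO range. The 30 glia of the library labelled WT1 held 10.6 of *Ptn* and 4.03 of *Ptprz1*, and the 18 of that labelled KO2 held 11.6 and 4.74, all between the groups.

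Other genes also varied less between the classes in KO. Of 1509 genes that are not gate genes and average at least 1 UMI per 10000, 4.11%, 7.09% and 3.05% had an SD over the 6 class levels above 0.5 log2 in WT2, WT3 and WT4. In KO4, KO5 and the library labelled WT5 the shares were 0.133%, 0% and 0%. *Neurod6*, a transcription factor of glutamatergic neurons, was at 5.36, 2.84 and 3.21 in WT glia and at 7.58 and 6.98 in KO glia. Summed over the 4 markers *Neurod2*, *Neurod6*, *Slc17a7* and *Bhlhe22*, glutamatergic transcripts in glia stood at 8.39, 4.57 and 7.64 in WT and 13.0 and 12.6 in KO, with 1 of the 4 markers at 0 in WT2 and none at 0 in the other 4 libraries. In interneurons the sum was 6.84, 5.31 and 3.10 in WT and 13.6 and 12.7 in KO, with 1 marker at 0 in each of WT2 and WT3, whereas in deep-layer neurons, whose gate asks for 1 of these markers, it was 22.0, 26.0 and 20.2 in WT and 16.8 and 15.1 in KO. Glutamatergic transcripts were thus more abundant in KO than in WT glia and interneurons, and their part in the values of *Ptn*, *Mdk* and *Ptprz1* was not tested.

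**Figure D3:**
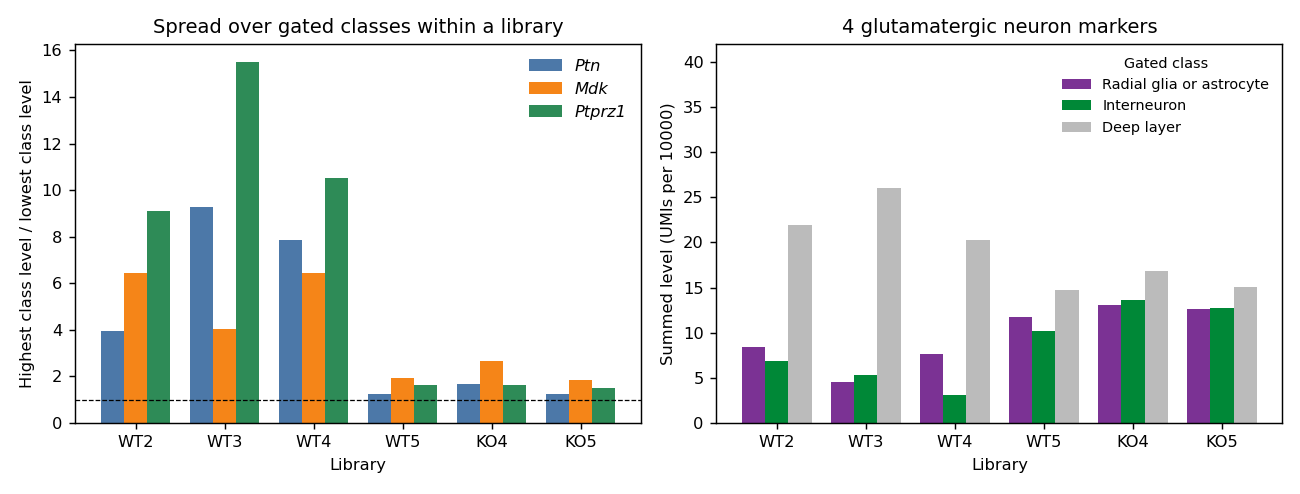
Left, ratio of the highest to the lowest class level within each library for *Ptn*, *Mdk* and *Ptprz1*, with a dashed line at a ratio of 1. Right, summed level (UMIs per 10000) of 4 glutamatergic neuron markers in 3 gated classes of the same libraries. The ratios run from 3.94 to 15.5 in WT2, WT3 and WT4 and from 1.22 to 2.64 in WT5, KO4 and KO5, where the marker sums of the 3 classes also lie closer together.

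The share of a gene's UMIs held by a class showed the same change. In the WT libraries glia were 7.29% ± 1.73 of cells and held 28.4% ± 1.88 of *Ptprz1* UMIs (SD, n = 3), while in the KO libraries they were 13.0% ± 2.01 of cells and held 14.6% ± 0.823 (SD, n = 2). Intermediate progenitors were 4.53% ± 2.15 of WT cells and held 11.0% ± 3.15 of *Mdk* UMIs, against 1.58% ± 0.697 of KO cells with 2.37% ± 1.04. In WT both classes thus held more of these genes than their share of cells, and in KO less so. Class sizes depend on the gates, and more KO than WT glia sat at the gate minimum.

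Over all kept cells, without classes, limma called 0 of the 7 genes between genotypes, beside 1.15% of 8554 genes. *Mdk*, *Ptprz1* and *Ptprs* had an unadjusted p under 0.05 in limma, as did 2202 of all 8554 genes. In edgeR 1 of the 7 did, beside 1320 or 1321 of all genes by scaling, and in DESeq2 2, beside 1281. Neither tool called any of the 7 after adjustment. *Ptn* was at 9.85, 13.1 and 7.14 UMIs per 10000 in WT and at 6.74 and 6.60 in KO, a ratio of KO to WT means of 0.664. *Mdk* was at 2.33, 3.64 and 2.1 in WT and 1.59 and 1.52 in KO, a ratio of 0.577. *Ptprz1* was at 3.35, 4.22 and 3.56 in WT and 2.81 and 2.26 in KO, a ratio of 0.683. These 3 genes and *Ptprs* (2.02, 1.98 and 1.94 against 1.63 and 1.56) did not overlap between the groups. Their log2 differences were -0.49 ± 0.21, -0.51 ± 0.17, -0.41 ± 0.12 and -0.20 ± 0.07 (SE), with limma adjusted p of 0.200, 0.163, 0.152 and 0.171. How many of all 8554 genes did not overlap is not given here, so the separation is not shown to be particular to these genes. *Sdc3*, *Ncl* and *Lrp1* overlapped, with differences of 0.08, -0.04 and -0.03, the last 2 of which changed sign in edgeR and DESeq2 (0.14 for *Ncl* and 0.13 for *Lrp1* in each). The median of the 7 differences was -0.20 and that of all genes tested -0.05. Without WT4, limma called *Ptn* and *Mdk*, in a fit that called 1394 of all 8380 genes. With the libraries WT1, WT5, KO1 and KO2 added as labelled, the difference became 0.10 for *Ptn*, 0.09 for *Mdk* and 0.03 for *Ptprz1*, none of them called.

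Within classes all 7 genes passed the filter on low values in every class, and 5 of 42 gene and class pairs were called, each of them lower in KO. In radial glia or astrocytes, where 4.02% of genes were called, *Ptn* fell from 24.0 ± 11.1 (SD, n = 3) to 7.16 ± 0.0216 UMIs per 10000 (SD, n = 2), by 1.53 ± 0.28 on the log2 scale (SE; limma, adjusted p = 0.0150). *Ptprz1* fell in the same class from 15.6 ± 5.55 to 2.90 ± 0.840, by 2.05 ± 0.25 log2 (SE; limma, adjusted p = 0.00101), the largest difference among the 42 pairs. Each WT library exceeded each KO library in both genes. How many of all genes separated in this way within the class is not given here. *Mdk* in glia (2.57, 5.30 and 3.54 against 1.79 and 1.68) did not overlap but missed the threshold at -0.78 ± 0.20 log2 (limma, adjusted p = 0.0567). When glia were required to carry at least 6 gate genes, which left 47, 61 and 204 WT and 36 and 32 KO cells, *Ptn* was at 36.4, 45.7 and 26.7 against 14.6 and 9.95, and *Ptprz1* at 19.7, 27.2 and 28.1 against 10.8 and 4.37. Both remained lower in KO, by a log2 difference of -1.48 ± 0.21 (limma, adjusted p = 8.4e-05) and -1.69 ± 0.25 (limma, adjusted p = 0.000422). In those cells the glial marker *Slc1a3* was at 13.4, 12.8 and 12.9 in WT and at 8.06 and 2.78 in KO, and the glutamatergic marker sum was 3.37, 2.87 and 2.86 in WT and 6.08 and 9.16 in KO. The part of these marker differences in the values of *Ptn* and *Ptprz1* was not tested.

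In the other dividing and transit classes the called genes were *Mdk* and *Ptprz1*. In cycling cells, where 12.2% of genes were called, *Mdk* fell from 4.83 ± 1.02 to 2.48 ± 0.615 UMIs per 10000 (log2 difference -0.74 ± 0.17; limma, adjusted p = 0.00349) and *Ptprz1* from 6.39 ± 0.491 to 2.95 ± 0.895 (-0.92 ± 0.17; limma, adjusted p = 0.000321). In cells under 4000 UMIs only, *Ptprz1* was no longer called (-0.63; limma, adjusted p = 0.0652), while *Mdk* was (-0.90; limma, adjusted p = 0.00175). In intermediate progenitors, where 1.38% of genes were called, *Mdk* fell from 7.51 ± 1.02 to 2.39 ± 0.0501 (-1.32 ± 0.20; limma, adjusted p = 4.77e-05). The glutamatergic marker sum in cycling cells was 4.90, 5.76 and 3.94 in WT and 11.8 and 12.9 in KO. KO5 had 25 intermediate progenitors, and its *Ptprs* level there was 0.250 against 2.04 in KO4, so the *Ptprs* difference in this class, which was not called, came from KO5.

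No pair was called in the postmitotic classes tested. In newborn neurons, with 2.74% of genes called, limma called 0 of the 7 genes. There 3 had an unadjusted p under 0.05, *Mdk* at -0.56, *Ptprs* at -0.48 and *Ptprz1* at 0.37, beside 1695 of all 8655 genes. In deep-layer neurons, with 0.896% of genes called, the count was again 0. *Ptn* (-0.51) had an unadjusted p under 0.05 there, beside 1050 of all 8484 genes. In interneurons, with 1.26% of genes called, limma called 0. The 2 genes with an unadjusted p under 0.05, beside 937 of all 8833 genes, were higher in KO interneurons. *Ptn* stood there at 5.15, 3.94 and 1.95 in WT and 5.71 and 6.85 in KO, by 0.70 ± 0.21 log2 (limma, adjusted p = 0.0896), and *Ptprz1* at 1.23, 2.03 and 1.40 against 2.29 and 2.75, by 0.47 ± 0.20 log2 (limma, adjusted p = 0.312). Each KO library exceeded each WT library in both genes. As in glia, how many of all genes separated in this way is not given, so the separation is not shown to be particular to these genes. KO interneurons also held more glutamatergic transcripts, as given above, and the part of these in both values was not tested.

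The calls depended on which libraries were used. None of the 5 was called when the library labelled WT5 was added, when all libraries were used as labelled, or when libraries were matched by number. With WT5 added, limma called 0 of 9147 genes in glia, 0 of 9114 in cycling cells and 1 of 9268 in intermediate progenitors. With all libraries as labelled it called 0 of 9680, 0 of 9288 and 1 of 9268. Matched by number, on WT4, WT5, KO4 and KO5, it called 0 of 8376, 0 of 8525 and 3 of 8492. The loss of calls was thus not particular to these genes. The fit as labelled took only libraries with at least 20 cells of the class. It left out KO2 in glia, and WT1 and KO2 in cycling cells. In intermediate progenitors it held the same libraries as the fit with WT5 added, so it was no separate check there. With WT5 added the log2 differences were -1.15 for *Ptn* and -1.49 for *Ptprz1* in glia, -0.40 for *Mdk* and -0.62 for *Ptprz1* in cycling cells, and -0.73 for *Mdk* in intermediate progenitors. Without KO5, 2 of the 5 remained called (*Ptprz1* in glia and *Mdk* in intermediate progenitors), and without KO4, 4 remained called (the exception being *Ptn* in glia). These fits take the spread from the WT libraries alone, since 1 KO library has none of its own, and the *Ptn* difference in glia was -1.52 without KO5 and -1.53 without KO4. The 3 count-based fits each kept *Ptn* and *Ptprz1* in glia, *Ptprz1* in cycling cells and *Mdk* in intermediate progenitors, and lost *Mdk* in cycling cells.

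**Figure D4:**
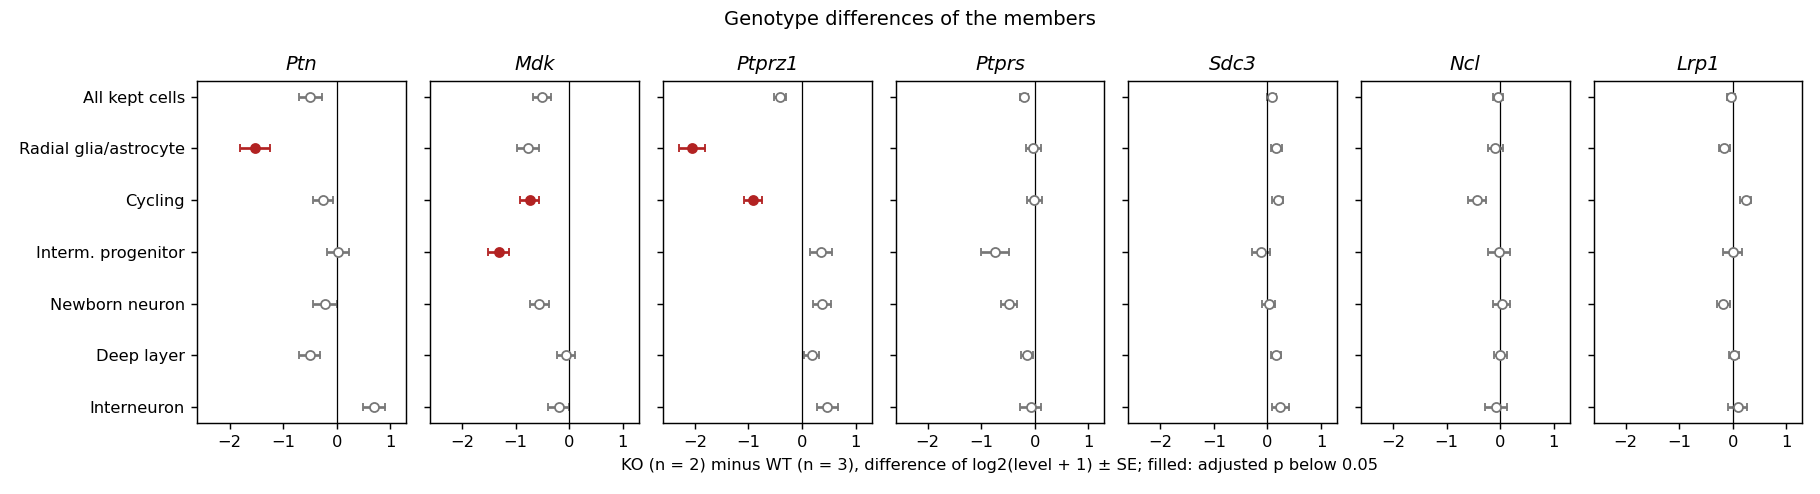
KO minus WT difference of log2(level + 1) for the 7 genes in all kept cells and in each gated class, with the SE of the limma fit as bars and filled red points for an adjusted p below 0.05. Filled points are *Ptn* in glia, *Mdk* in cycling cells and intermediate progenitors, and *Ptprz1* in glia and cycling cells, from -0.74 to -2.05, while *Ptprs*, *Sdc3*, *Ncl* and *Lrp1* have none.

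The shares of cells with at least 1 UMI, in cells thinned to 1800 UMIs, were compared as a second readout. For *Ptn* in glia the share was 78.1%, 97.7% and 68.9% in WT and 66.0% and 75.6% in KO, and the groups overlapped. *Ptprz1* was found in 59.0%, 83.0% and 58.8% of WT glia and in 38.1% and 30.1% of KO glia. In intermediate progenitors the order was the opposite, with 17.4%, 25.9% and 21.1% in WT and 33.3% and 36.0% in KO. *Mdk* was found in 56.5%, 65.2% and 57.9% of WT intermediate progenitors and 34.5% and 36.0% of those in KO. Each of these *Ptprz1* and *Mdk* contrasts had no overlap and an exact 2-sided permutation p of 0.1. That is the smallest that 3 against 2 libraries allow, so no share could pass 0.05 in any of the 49 comparisons. Over all kept cells the *Ptn* share was 65.0%, 73.0% and 54.1% in WT and 65.5% and 69.1% in KO (exact permutation p = 0.7), and without thinning it was 73.6%, 85.9% and 73.2% against 75.6% and 77.9%. The *Ptprz1* share over all kept cells was 36.0%, 37.2% and 31.8% in WT and 37.2% and 32.6% in KO (exact permutation p = 0.9), so it overlapped where the level did not. As a background, microglia and endothelial cells were read the same way. In KO4 *Ptn* was found in 6 of 13 microglia (46.2%, exact 95% interval 19.2% to 74.9%) and in 18 of 31 endothelial cells (58.1%, 39.1% to 75.5%), against 66.0% of glia. In WT4 it was found in 3 of 27 microglia (11.1%, 2.35% to 29.2%), 7 of 13 endothelial cells (53.8%, 25.1% to 80.8%) and 68.9% of glia. For *Ptprz1* the microglial share was 3 of 13 in KO4 (23.1%, 5.04% to 53.8%), an interval that holds the 38.1% of KO4 glia, and 1 of 27 in WT4 (3.70%, 0.0937% to 19.0%). *Mdk* was found in 3 of 27 microglia of WT4 (11.1%, 2.35% to 29.2%), below the 57.9% of its intermediate progenitors, and in 1 of 13 microglia of KO4 (7.69%, 0.195% to 36.0%) and 5 of 31 endothelial cells (16.1%, 5.45% to 33.7%), where the first interval holds the 34.5% of KO4 intermediate progenitors. The median depth was 2238 UMIs in KO4 microglia and 2246.5 in KO4 glia, and 3354 and 4330.5 in WT4. These intervals cover counting error only.

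Ligand and receptor transcripts were also counted in the same cell. *Ptn* and *Ptprz1* were both present in 50.5%, 81.8% and 50.2% of glia in WT2, WT3 and WT4, against 46.1%, 81.1% and 40.5% given by the product of their separate shares. In KO4 and KO5 both were present in 25.7% and 22.3% of glia, with products of 25.1% and 22.8%. *Mdk* and *Ptprz1* were both present in 4.35%, 14.3% and 15.8% of WT intermediate progenitors, with products of 9.83%, 16.9% and 12.2%, so the joint share lay on either side of the product. Depth and free RNA within a library are shared by such pairs of counts.

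The wider pathway was followed with a list of 58 genes of other receptors, related phosphatases, proteoglycans, sugar chain enzymes and partners and substrates of PTPRZ1. In glia 42 of these were tested, of which 2 were higher and 3 lower in KO, beside 4.02% of all genes called. Lower were 3 matrix genes, *Tnc* (tenascin C, a ligand of PTPRZ1) at 2.05, 4.15 and 2.59 UMIs per 10000 in WT against 0.544 and 0.298 in KO, and the brain proteoglycans *Bcan* (brevican, 1.05, 1.71 and 1.33 against 0.185 and 0.138) and *Ncan* (neurocan, 4.16, 5.30 and 4.73 against 2.56 and 2.22). Their log2 differences were -1.44, -1.02 and -0.76, with limma adjusted p of 0.00191, 0.0013 and 0.0146. The glial marker *Slc1a3* was also lower in this class, at 6.66, 9.78 and 6.67 in WT against 2.05 and 1.33 in KO. The part of that marker difference in the values of these 3 genes was not tested. Higher were the adhesion molecule *Ncam1* (1.64 log2; limma, adjusted p = 0.000598) and *Arhgap35*, which encodes a substrate of PTPRZ1 (0.63 log2; limma, adjusted p = 0.0116). *Ncam1* rose in all kept cells and in each of the 6 classes, from 5.27, 5.50 and 6.85 to 16.8 and 15.3 over all kept cells, and *Notch2* rose in all kept cells and in 5 of the 6 classes, glia being the exception.

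Over all kept cells 3 of 37 pathway genes tested were called, each higher in KO, beside 1.15% of all genes, of which 91 of 98 were higher. In cycling cells, with 12.2% of all genes called, 6 of 38 were higher and 3 lower, among them the phosphatase *Ptprd* (0.473 to 1.51 in the group means), the kinase *Gsk3b* (3.28 to 5.09) and the integrin *Itgb1* (1.32 to 0.530). In intermediate progenitors, with 1.38% of all genes called, 2 of 36 were higher and 1 lower, the lower being *Lrp8*, a reelin receptor that also binds midkine, at 1.13, 1.84 and 1.81 in WT and 0.565 and 0.338 in KO (limma, adjusted p = 0.0179). In newborn neurons 3 of 38 were higher and 2 lower, beside 2.74% of all genes, and in deep-layer neurons 2 of 35 and 1, beside 0.896%. *Nrp1*, a semaphorin receptor, was lower in both classes, at 4.70 against 1.58 in newborn neurons and 2.90 against 1.05 in deep-layer neurons. In interneurons 2 of 37 were higher and none lower, beside 1.26% of all genes. The 17 sugar chain enzymes, which build the chains that both ligands bind, had no call in any class, with 7 to 11 of them tested. The median difference over the tested pathway genes lay between -0.04 and 0.09 log2 in every class, beside medians of -0.05 to -0.03 over all genes.

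The genes with the pattern most like that of *Ptn*, *Mdk* or *Ptprz1* over the 6 class means of the 5 libraries were sought among 1992 genes. For *Ptn* they were *Insig1* (Pearson's r = 0.977), *Scd2*, *Sparcl1*, *Igfbp2* and *Cd81* (r = 0.960). For *Mdk* they were *Rpl18* (r = 0.995), *Ezr*, *Bola1*, *Mfap2* and *Rpl5* (r = 0.974). For *Ptprz1* they were *Mt1* (r = 0.996), *Rgcc*, *Lxn*, *Mt3* and *Id3* (r = 0.993), of which *Mt3* is a gate gene of the glial class. Among the 7 genes themselves, *Ptn* and *Ptprz1* had an r of 0.922 over the 6 class means, *Ptn* and *Mdk* 0.15, and *Mdk* and *Ptprz1* 0.168. The 6 points of each correlation share their libraries, depth and gates, and they are given as a description.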

How the data were processed

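Neocortex of 5 WT and 4 KO embryos was profiled with 10x Chromium 3′ chemistry, 1 embryo per library. Per the labels, the submitters' processing notes name Cell Ranger 2.1.0, GRCm38 (mm10), R 3.6.0 and Seurat 2.3.4. The authors deposited whole UMI counts for WT4, WT5, KO4 and KO5, and for the other 5 libraries natural log values of 1 plus UMIs per 10000, from which whole UMIs were recovered in 100% of values (tolerance 1e-06). Deposited totals ran from 348105 to 29767293 UMIs per library.

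Cells with 1000 to 5000 genes, 1800 to 10000 UMIs, under 6% mitochondrial and at most 1% haemoglobin UMIs were kept. Like the study, the comparisons left out libraries with few cells and a WT library with low *Tcf4*. Classes were gated by marker lists on cells thinned to 1800 UMIs, and tested with at least 20 cells in each of 5 libraries. A further gated class, and the tests that need it, are not reported here and entered no contrast between classes. Mean levels were tested as log2(level + 1) with limma 3.58.1 (trend, robust), for genes at 0.1 or more in at least 2 libraries, with Benjamini-Hochberg adjustment over all genes and calls under 0.05. Contrasts between classes had the library as a block. edgeR 4.0.16 (quasi-likelihood) and DESeq2 1.42.0 on summed UMIs, other pseudocounts, filters, gates and libraries were alternatives. Shares were compared with exact 2-sided permutation tests. Intervals are exact Clopper-Pearson 95% intervals and cover counting error only. P-values of the genotype comparisons measure the spread between embryos. Those of contrasts between classes measure the spread left after class and library are fitted. That spread is pooled over all classes for a gene, and the class values of a library are taken as independent. The fits were tested on simulated data, where the fit between classes made extra false calls. That simulation covered only intermediate progenitors against the other classes, the contrast in which *Mdk* was called above. A fit with weights per class and library was therefore added, after the data had been seen. The p-values between classes given above, those of *Mdk* in intermediate progenitors among them, come from the fit without weights.

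The 7 genes, the pathway list and the markers were chosen with earlier results of these data known. Named are the 7 genes, *Tcf4*, up to 5 called pathway genes per comparison by size of change, and the 5 genes most like each of *Ptn*, *Mdk* and *Ptprz1*. *Neurod6* and *Slc1a3* were named after their values were seen.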

Additional observations from a re-analysis of the deposited data

Results flagged for a closer look

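In 56 groups of WT or KO libraries, each with 4 or 5 libraries, 4 held a library far from the others, and chance alone flags about 1 group in 20. *Mdk* in deep-layer neurons of WT3 was at 2.16 UMIs per 10000, against 1.12 in the nearest of the other WT libraries. *Ptprs* over all kept cells of the library labelled KO1 was at 2.81, against 1.71 in the nearest KO library, and *Ncl* in the same library was at 8.81, against 5.35. *Sdc3* in radial glia or astrocytes of the library labelled WT1, which rests on 30 cells, was at 1.04, against 0.47.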

How the results depend on the processing

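Of the 7 genes, 0 were called over all kept cells, and leaving out 1 WT library gave 0 to 2. The 2 came without WT4, in a fit that called 1394 of all 8380 genes. Within classes 5 pairs were called, against 3 with no filter on low values, 8 with gates on all UMIs, 0 with the library labelled WT5 added, 0 with all libraries as labelled and 2 to 7 with 1 library left out, the 2 without KO5. With no filter, limma called 64 of 15328 genes in glia, 246 of 14590 in cycling cells and 22 of 13607 in intermediate progenitors. In the same order it called 266 of 9032, 638 of 8940 and 118 of 8763 with gates on all UMIs. With WT5 added it called 0 of 9147, 0 of 9114 and 1 of 9268. Between classes 8 pairs were called, against 17 in the WT libraries alone, 0 in the KO libraries alone (7 at an unadjusted p under 0.05 in limma), 5 with gates on all UMIs and 1 to 12 with 1 library left out, 1 without WT2 or WT3 and 2 without WT4. The KO-only fit, the fit with weights (12 pairs) and the stricter glial gate were chosen after seeing the data. Shares over all kept cells did not overlap for 2 genes, for 4 without thinning, and for 2 to 4 with 1 library left out. No such count over all genes is given beside these. Shares without thinning also depend on depth, which was higher in the compared WT libraries. Over all kept cells the sign turned with all libraries as labelled for *Ptn* (0.10 log2), *Mdk* (0.089), *Ptprz1* (0.032) and *Ncl* (0.24), without WT3 for *Sdc3* (range -0.0078 to 0.12 with 1 library left out), without WT4 for *Lrp1* (range -0.091 to 0.0062), and in edgeR with either scaling and DESeq2 for *Ncl* (0.14 each) and *Lrp1* (0.13 each). *Ncl* in cycling cells against the others turned in the KO libraries alone (-0.033). With libraries matched by replicate number as a block, 0 pairs were called within classes, and *Ptn* (0.072), *Mdk* (0.034) and *Ncl* (0.010) turned over all kept cells. That replicate block rests on other libraries, among them WT5, and the numbers were not shown to pair the samples, since same-numbered libraries correlated at -0.051, 0.296, 0.302 and 0.565 over 1483 genes and WT5 correlated best with KO4 (0.572). The cause of these changes was not tested. In all, 227 values under alternatives kept their direction and side of the threshold, 59 lost the call, 2 gained it and 16 turned.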
